A study of Oryza sativa with 6 samples.

Results

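The aquaporins described here are 8 rice loci, 3 of tonoplast type (TIP) and 5 of NIP type, selected by their locus names among 63985 entries, where an entry is an assembled transcript locus of the deposited tables. Aquaporins are membrane channels that let water and small uncharged solutes pass. Tonoplast intrinsic proteins (TIPs) sit in the membrane of the vacuole and serve water exchange between the vacuole and the cytosol, and nodulin 26-like intrinsic proteins (NIPs) are known for carrying solutes such as silicic acid, boric acid, glycerol or arsenite. In roots, aquaporins contribute to the movement of water from soil to the vessels.

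The roots came from 4-week-old seedlings of Oryza sativa, japonica cultivar Chilbo, from which water had been withheld for 2 d (WD 2 d) or 3 d (WD 3 d), or which had stayed well watered (control). The labels give the control the same growth stage, but its column is headed c1, a name the study also uses for the control of its first day of WD, so the day on which it was sampled was not settled here. All plants were grown in soil in pots. Each group had 2 libraries, 6 in all, but the tables hold 1 pooled value per group and entry, in FPKM, a fragment count scaled by transcript length and library size. No spread between libraries, test or interval is therefore given here, the comparison columns of the authors were not used, and the depth of each library is unknown. As the tissue is bulk root, fewer cells of a type and less RNA per cell cannot be told apart.

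Every member was named by exactly 1 entry, and each of these 8 entries named no other locus. Their classes follow the family label under which they were grouped. Of the 8, the supplementary annotation names LOC_Os03g05290 an aquaporin protein, and the deposited tables give locus names without descriptions. The RefSeq gene table (assembly ASM3414082v1) does not list these locus names. It holds a single TIP gene on chromosome 3, OsTIP1;1, and a single NIP gene on chromosome 6, OsNIP2;2, also called Lsi6. LOC_Os03g05290 and LOC_Os06g12310 were given these names here because each is the only member of its class on its chromosome, which is a match by class and chromosome and not by identifier. The other 6 loci are left with their locus names. By names of this form, RefSeq lists 0 NIP genes on chromosome 5, where LOC_Os05g11560 lies, and 1 on chromosome 8 for 2 members. On chromosome 1 it lists 2 NIP genes for 1 member and 2 TIP genes for 2 members. The classes of these 6 were thus not checked in this way.

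Locus names in these tables were examined for their place along the chromosomes, because names may be displaced along them. Whether they are was not tested here. For each chromosome the position was located past which entries share their name with another entry more often, termed its change point, and 78.1% of expressed named entries fall beyond it. All 8 members lie before it. On their 5 chromosomes, 3.72% to 10.5% of the expressed named entries share a name before the change point, against 38.0% to 41.2% after it. The change point was placed by this same share, and only a higher share after it was allowed. The direction of the contrast was thus set in advance. As a check of the tissue, 7 loci entered as leaf photosynthesis genes, 5 of them before the change points, were at 0.0785 FPKM or less in WD 2 d, 0.0782 FPKM or less in WD 3 d and 0.152 FPKM or less in control roots. Of 3 loci entered as root transporters, LOC_Os02g02170 and LOC_Os02g02190 were listed at 0 in both WD groups and at 0.0793 and 0.0815 FPKM in control. The third, LOC_Os03g01700, was at 7.18 FPKM in WD 2 d and 1.85 FPKM in WD 3 d, against 921 FPKM in control. With 2 of the 3 root loci near 0 in every group, this check does not settle the tissue, which is taken from the study.

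Among the members, 2 were at 1 FPKM or more in WD 2 d, 2 in WD 3 d and 4 in control. LOC_Os03g05290 dominated in all 3 groups. The 8 values sum to 204 FPKM in WD 2 d, 136 FPKM in WD 3 d and 360.4 FPKM in control, and this locus held 96.3% of the sum in WD 2 d, 95.05% in WD 3 d and 84.8% in control. The summed level was thus lower in both WD groups, and the share of the leading TIP was higher in them, with LOC_Os06g12310 near 0 there.

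**Figure D1:**
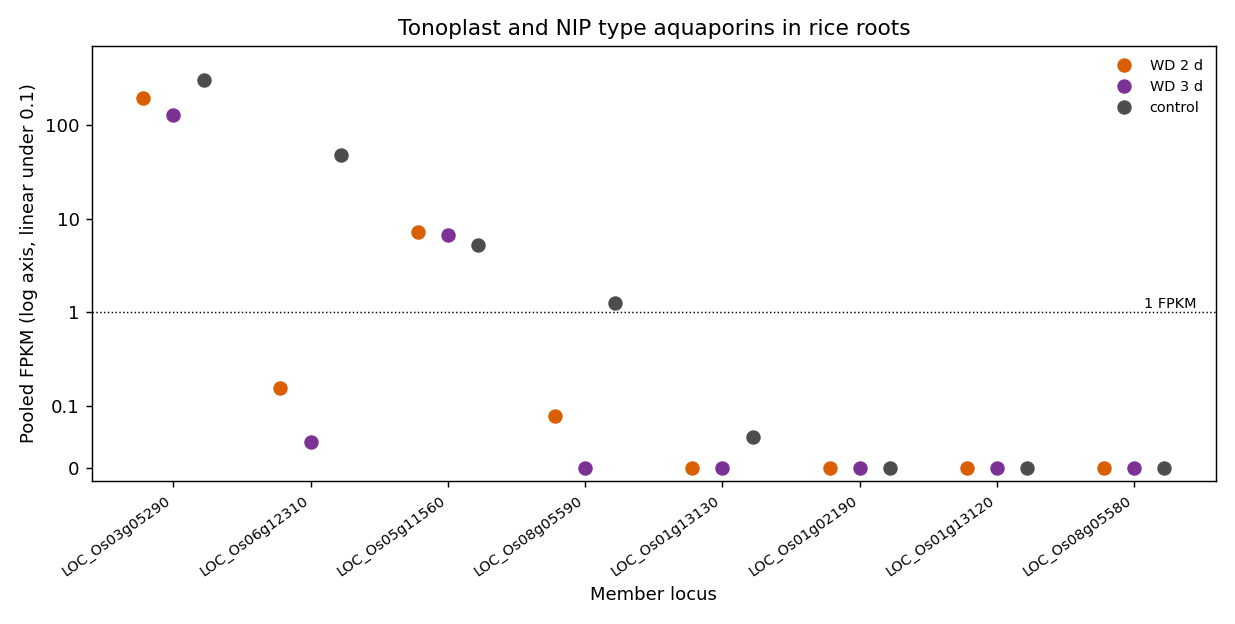
Pooled FPKM of the 8 members (horizontal axis) in WD 2 d, WD 3 d and control roots, on a log axis that is linear under 0.1 FPKM, with 1 point per group and the limit of 1 FPKM dotted. LOC_Os03g05290 is at 129 FPKM or more in every group, LOC_Os06g12310 is at 48.3 FPKM in control and at 0.157 FPKM or less in both WD groups, and 4 loci stay under 1 FPKM throughout.

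The leading member was the TIP. LOC_Os03g05290 (OsTIP1;1), of the subgroup known as abundant in the vacuolar membrane of many plant tissues, lies on chromosome 3 from 2561814 to 2564648 in the coordinates of the deposited tables, which the study places on the IRGSP 1.0 genome. It was at 196 FPKM in WD 2 d and 129 FPKM in WD 3 d, against 306 FPKM in control. The control level exceeded 99.3% of the 21244 entries at 1 FPKM or more in control, and in WD 3 d the locus still exceeded 97.0% of 19092 such entries. The transcript thus remained among the abundant ones in roots short of water while its level was lower.

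Relative to control, LOC_Os03g05290 stood at 64.2% in WD 2 d, a log2 ratio of -0.64, and at 42.3% in WD 3 d, a log2 ratio of -1.24. Between the times it was at 65.9% in WD 3 d of its WD 2 d value, a log2 ratio of -0.60. The 3 pooled values are therefore ordered, lowest in WD 3 d and highest in control, and the 2-fold limit used here for calls was passed only by WD 3 d against control. Of the 9236 entries at 10 FPKM or more in control, 32.7% had a ratio at least as low in WD 2 d and 26.5% in WD 3 d. Such a decrease was thus common in this set, but a choice by control value favours lower ratios. Among entries over 4 FPKM in both groups, 13.2% were over 2-fold lower in WD 3 d than in control and 16.2% were over 2-fold higher.

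An unnamed entry is listed at the same coordinates as LOC_Os03g05290. It was at 47.2 FPKM in WD 2 d and 43.3 FPKM in WD 3 d, against 72.2 FPKM in control, with log2 ratios of -0.61 and -0.74. Its level was lower than that of the TIP in each group, and it was nearly level between the 2 WD groups. Whether the library strand was used in counting is not stated in the sources used here, so reads of overlapping transcripts may not have been separated. With both entries summed, a setting chosen after seeing the data, the log2 ratio in WD 3 d was -1.13.

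**Figure D2:**
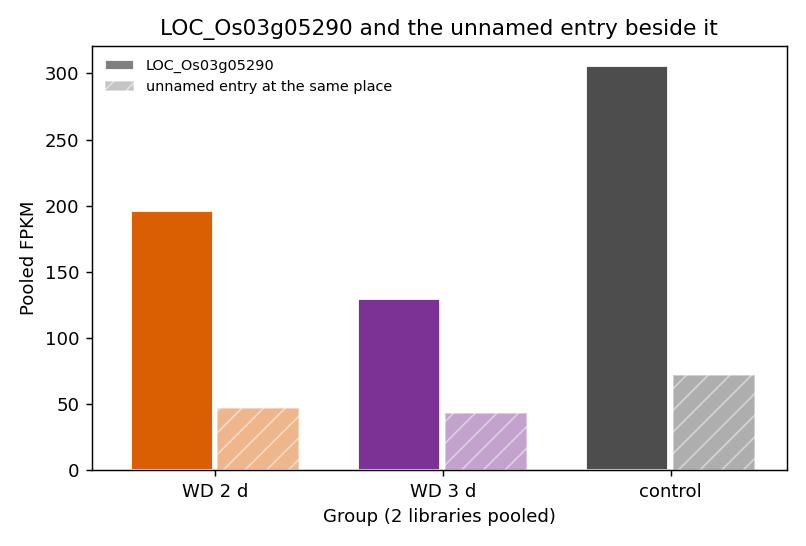
Pooled FPKM (vertical axis) of LOC_Os03g05290, solid bars, and of the unnamed entry at the same coordinates, hatched bars, in WD 2 d, WD 3 d and control roots. The solid bars stand at 196, 129 and 306 FPKM and the hatched bars at 47.2, 43.3 and 72.2 FPKM, both highest in control.

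The lowest ratios among members listed above 0 in both groups compared were those of a NIP. LOC_Os06g12310 (OsNIP2;2, Lsi6), a silicic acid channel known from rice for the distribution of silicon in the shoot and also present in root tips, lies on chromosome 6 between 6647415 and 6653005. It was at 0.157 FPKM in WD 2 d and 0.0431 FPKM in WD 3 d, against 48.3 FPKM in control. In control it exceeded 90.7% of the entries at 1 FPKM or more, and in both WD groups it was below the limit of 1 FPKM under which a member is only listed as low.

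The level of LOC_Os06g12310 was 307 times lower in WD 2 d than in control, a log2 ratio of -8.26, and 1122 times lower in WD 3 d, a log2 ratio of -10.13. Both ratios rest on WD values close to 0, so their size depends on how low values are treated. With 1 added to each FPKM the log2 ratios were -5.41 and -5.56. Of the 9236 entries at 10 FPKM or more in control, 85 had a ratio at least as low in WD 2 d, or 0.920%, and 124 in WD 3 d, or 1.34%. This set was chosen by control value, which favours lower ratios, and the locus is in it through control alone. These shares therefore only describe its place in the set. No other entry overlaps this locus.

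The second NIP with a measurable level behaved differently in sign. LOC_Os05g11560, at 6539574 to 6544932 of chromosome 5, reached 7.22 FPKM in WD 2 d and 6.69 FPKM in WD 3 d, against 5.29 FPKM in control. Its log2 ratios of 0.45 and 0.34 are both within the 2-fold limit, as is that of -0.11 between WD 3 d and WD 2 d. Of the 4 members at 1 FPKM or more in a group, it alone had higher values in the WD groups than in control. Whether these values differ was not tested here. Rescaling the groups to equal sums without the 2 highest entries of all gave log2 ratios to control of 0.35 and 0.14. Those 2 entries held most of the FPKM, as control summed to 2.17e+06 with them and 508673 without.

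LOC_Os08g05590, a NIP on chromosome 8 from 2988309 to 2991016, was near the low limit. Its level was 0.0836 FPKM in WD 2 d and was listed at 0 in WD 3 d, against 1.26 FPKM in control. Its log2 ratio in WD 2 d was -3.92, or -1.06 with 1 added to each FPKM, and no ratio is given for WD 3 d. Only 4.74% of the entries at 1 FPKM or more in control were lower there, so this member passed the limit narrowly and through its control value alone.

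The remaining 4 members were low in every group. The TIP loci LOC_Os01g13120 and LOC_Os01g13130 follow each other on chromosome 1, at 7297671 to 7298971 and 7302367 to 7303788. LOC_Os01g13120 was listed at 0 in all groups, and LOC_Os01g13130 was listed at 0 in both WD groups and at 0.0501 FPKM in control. The NIP loci LOC_Os01g02190, on chromosome 1 from 645573 to 646723, and LOC_Os08g05580, on chromosome 8 from 2983740 to 2986762 and next to LOC_Os08g05590, were listed at 0 throughout. With the depth unknown, these values say only that no expression was listed.

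Counted against the 2-fold limit, with entries at 1 FPKM or more in at least 1 of the 2 groups compared, 2 of the 4 members that entered were lower in WD 2 d than in control, the NIPs LOC_Os06g12310 and LOC_Os08g05590, and 0 were higher. Among all 22942 entries, 25.5% were lower and 15.4% were higher by this limit. In WD 3 d 3 of 4 members were lower than in control, the 2 NIPs LOC_Os06g12310 and LOC_Os08g05590 and the TIP, beside 30.1% of 23170 entries lower and 20.2% higher. Before the change points alone, 26.1% of entries were lower and 13.9% higher in WD 2 d, and 31% lower and 17.8% higher in WD 3 d. Between the times, 0 of the 2 members that entered passed the limit, beside 10.2% of 20614 entries lower and 4.88% higher in WD 3 d than in WD 2 d, or 10.2% and 4.24% before the change points. LOC_Os06g12310 and LOC_Os08g05590 passed the low limit only through control and so had to be lower in both WD groups. These counts therefore describe the 4 loci and do not set the family apart. The WD 2 d and WD 3 d ratios share the same control libraries.

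The other aquaporin loci of a list drawn up for this family were 23, with 25 entries. The list holds 11 plasma membrane intrinsic proteins (PIPs), which carry water across the cell's outer membrane, 7 further TIPs, 3 further NIPs and 2 loci entered as small basic intrinsic proteins. The sources used here do not pair most of these loci with gene names. Beyond the change points lay 22 of the 23 loci, and 15 were under 1 FPKM in every group, 11 of them listed at 0 throughout. Where the reads of these entries came from was not analysed here. Names beyond the change points may not identify the transcripts measured. Values given below for such loci are therefore those of the named entries, and low ones do not show that an aquaporin is silent in roots.

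Of the PIP loci 3 reached 1 FPKM, and none passed the 2-fold limit. In WD 2 d 3 entered the comparison with control, beside 25.5% of all entries lower and 15.4% higher. In WD 3 d 2 entered, beside 30.1% lower and 20.2% higher. So few entries do not set the PIPs apart. LOC_Os03g64330 was the highest, at 21.2 FPKM in WD 2 d and 20.4 FPKM in WD 3 d, against 18.4 FPKM in control. The remaining 2, LOC_Os07g26660 and LOC_Os02g57720, did not exceed 1.58 FPKM.

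The entries that reached 1 FPKM and had been entered as further TIPs and NIPs were over 2-fold lower in both WD groups than in control, beside 25.5% of all entries in WD 2 d and 30.1% in WD 3 d. LOC_Os01g74450 and both entries of LOC_Os05g14240 reached 1 FPKM only in control and so had to be lower. In WD 3 d this also held for LOC_Os04g46490 and for the entry that LOC_Os10g36924 shares with a second locus. LOC_Os05g14240 and LOC_Os10g36924 have 2 entries each at the same coordinates. LOC_Os04g46490, entered as a TIP, was at 2.32 FPKM in WD 2 d and 0.770 FPKM in WD 3 d, against 5.78 FPKM in control. LOC_Os01g74450, also entered as a TIP, was at 0.386 FPKM in WD 2 d and 0.182 FPKM in WD 3 d, against 2.24 FPKM in control. Both entries of LOC_Os05g14240, 1 of which lists a second locus, were listed at 0 in WD 2 d and WD 3 d, against 4.99 and 2.63 FPKM in control. LOC_Os10g36924, entered as a NIP, had an entry at 4.08 FPKM in WD 2 d and 1.12 FPKM in WD 3 d, against 19.2 FPKM in control. A further entry, shared with a second locus, was at 2.41 FPKM in WD 2 d and 0.486 FPKM in WD 3 d, against 12.4 FPKM in control. Their log2 ratios were -2.24 and -2.36 in WD 2 d and -4.11 and -4.67 in WD 3 d.

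LOC_Os01g10600, which the supplementary annotation names an aquaporin protein, is the only other family locus before the change point. Its entry, which also lists LOC_Os01g10610, was at 34.7 FPKM in WD 2 d and 26.7 FPKM in WD 3 d, against 57.0 FPKM in control, and its log2 ratios were -0.72 and -1.10. Its class was entered as small basic intrinsic protein and was not settled, since RefSeq lists both such a gene and NIP genes on chromosome 1. It was within the 2-fold limit in WD 2 d and past it in WD 3 d.

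**Figure D3:**
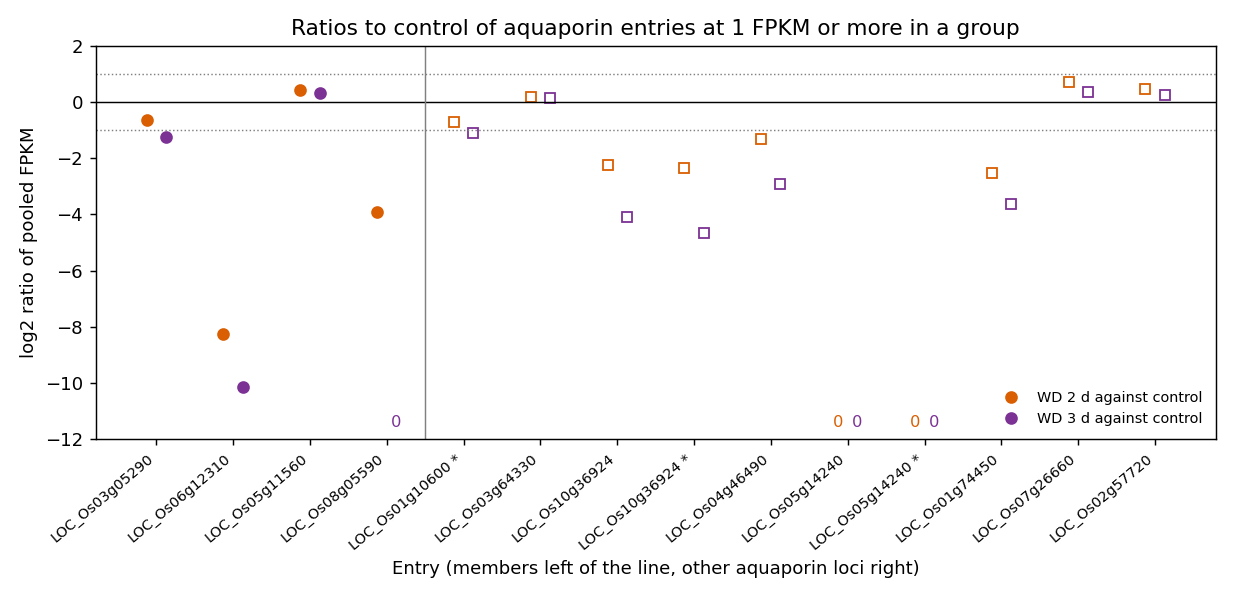
Log2 ratio of pooled FPKM (vertical axis) in WD 2 d and in WD 3 d against control for aquaporin entries at 1 FPKM or more in a compared group, members as filled circles on the left and other family loci as open squares on the right. Dotted lines mark the 2-fold limits, a 0 at the bottom marks a value listed at 0 in that WD group, and an asterisk marks an entry that names a second locus. LOC_Os06g12310 has the lowest ratios drawn, -8.26 and -10.13.

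The pattern of LOC_Os03g05290 over the 3 groups was compared with that of 2795 entries at 10 FPKM or more in every group that name 1 locus named by no other entry. By Euclidean distance between the pairs of log2 ratios to control, the nearest were LOC_Os01g45820, at a distance of 0.04, LOC_Os03g56670, at 0.04, and LOC_Os01g60510, at 0.07. LOC_Os01g45820 was at 30.2 FPKM in WD 2 d and 19.2 FPKM in WD 3 d, against 46.7 FPKM in control. All 3 lie beyond the change points. Of the 2795 entries 30 were within 0.2, so this pattern of 3 pooled values is not particular to LOC_Os03g05290.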

How the data were processed

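Root RNA libraries were sequenced as paired ends by the authors, trimmed with cutadapt and Trim Galore and mapped with TopHat to IRGSP 1.0. Gene features came from the RGAP annotation. The FPKM values were deposited by the authors as Cuffdiff output, 1 per group, pooling 2 libraries. The sources used here state neither tool versions nor how libraries were scaled. The control column is headed c1 and was taken as the control group of the labels. The tables also hold the authors' log2 fold changes, test statistics, p-values and q-values, which were not used.

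Ratios were computed from FPKM without a pseudocount. Entries at 1 FPKM or more in at least 1 compared group entered, and an entry listed at 0 in 1 group counted as past the 2-fold limit. Members and lists were chosen with earlier results of these data known. The design allowed for limma or edgeR on values per library, which were not used here because only pooled FPKM were analysed. Named were all members, family loci at 1 FPKM or more that led their class or passed 2-fold, and the 3 nearest patterns. Other loci were chosen after their values were seen. The change point splits a chromosome's named entries over 1 FPKM, at least 30 on each side, and only a higher share after it was allowed. No protein or promoter sequence was used. Alternatives covered pseudocounts, scaling, low-value and fold limits and entry choice. The call rule and the change point search were run on simulated data with planted answers. For the call rule these were 4-fold changes with little noise, in entries at 1 FPKM or more in every group. Passing the 2-fold limit was then all but certain, and values near 0 were not covered. Python 3.11.15, pandas 2.3.3, numpy 2.4.6 and matplotlib 3.10.9 were used.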

Additional observations from a re-analysis of the deposited data

How the results depend on the processing

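All 48 recomputed log2 ratios of the members kept their direction and their side of the 2-fold limit, and 6 moved by over 1.5 times, all with a pseudocount. Part of this was fixed in advance. Summing the entries that name a locus repeats the main ratio, because each member has 1 entry. Centring shifts all log2 ratios of a comparison by 1 small constant. The 6 that moved were those of 2 loci. The loci were LOC_Os06g12310, at -5.41 and -5.56 in WD 2 d and WD 3 d with 1 added and -7.56 and -8.40 with 0.1 added, and LOC_Os08g05590, at -1.06 and -2.89 in WD 2 d. A limit of FPKM over 4 in both groups leaves out LOC_Os06g12310 and LOC_Os08g05590 by construction. With it, 0 members were lower in WD 2 d than in control and 1, LOC_Os03g05290, was lower in WD 3 d. Between WD 3 d and WD 2 d, LOC_Os06g12310 and LOC_Os08g05590 were lower with no low-value limit, beside 11% of all entries. Both were under 1 FPKM in both WD groups, so these 2 calls rest on values near 0. At 1.5-fold, 1 of the 2 members that entered was lower, LOC_Os03g05290, beside 19.0% of entries.

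The shares of entries past the limit are given as lower and higher in WD 2 d, then WD 3 d, then WD 3 d against WD 2 d, where they moved by over 1.5 times. With FPKM over 4 in both groups, 11.8% were lower in WD 2 d, 13.2% in WD 3 d and 3.40% (2.34% higher) between the times. At 4-fold they were 15.0% and 6.78%, 19.7% and 8.61%, and 3.44% and 0.965%. At 1.5-fold 25.6% were higher in WD 2 d, 30.4% in WD 3 d, and 19.0% lower and 13.8% higher between the times. Between the times, 5.57% were lower and 2.25% higher with 1 added, and 8.36% were higher with no low-value limit.

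No paired analysis was possible because the FPKM of the 2 libraries of a group are pooled into a single number. Leaving out each library was not run, for that reason. The unknown depth limits every value near 0.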

Other observations

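Near-silence under water deficiency was not limited to LOC_Os06g12310. Of the 9236 entries at 10 FPKM or more in control, 187 were under 0.5 FPKM in both WD groups, or 2.02%, among which this NIP ranked 28 by its control level. Before the change points it ranked 4 among 34 such entries of 1935. In the opposite direction, 157 of 8062 entries at 10 FPKM or more in both WD groups were under 0.5 FPKM in control. These counts were made after the values were seen.

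Neighbours of the members, also chosen after their values were seen, differed among the loci. Within 30 kb of LOC_Os06g12310 only LOC_Os06g12320 reached 1 FPKM, at 0.120 FPKM in WD 2 d and listed at 0 in WD 3 d, against 3.0 FPKM in control. Within 30 kb of LOC_Os05g11560, LOC_Os05g11580 was listed at 0 in WD 2 d and WD 3 d, against 43.8 FPKM in control, while LOC_Os05g11550 was at 26.1 FPKM in WD 2 d and 17.6 FPKM in WD 3 d, against 23.2 FPKM in control. Around LOC_Os03g05290, 7 neighbouring entries reached 1 FPKM, of which 0 were over 2-fold lower and 2 were over 2-fold higher in each WD group than in control. Among all entries, 25.5% were lower and 15.4% higher in WD 2 d, and 30.1% and 20.2% in WD 3 d. So few neighbours do not set this place apart. Neighbours of the other members are not described here.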
